A study of Mus musculus with 9 samples.

Results

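The 10 genes described here are the core of the mammalian circadian clock and its best-known output: the activators Arntl (also called Bmal1) and Clock, the repressors Per1, Per2, Per3, Cry1 and Cry2, the nuclear receptors Nr1d1 and Nr1d2 (REV-ERBα and REV-ERBβ), and the output transcription factor Dbp. They were chosen by gene symbol from the 52550 genes of the tables. No cut on their values was used, but earlier results of these data were known. All 10 passed the filter on low values, which kept the 17080 genes that reached a TPM of 1 in 3 or more of the 9 libraries. TPM is a length-normalized measure of abundance, the share of a library's transcripts that a transcript makes up, here summed over the transcripts of a gene.

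The mice were male C57BL/6N aged 9 to 12 weeks, and RNA of their cerebral cortex was measured in 3 groups of 3 libraries. The control oligo and knockdown mice received a locked nucleic acid antisense oligonucleotide through the lateral ventricles, with a negative control sequence or directed against the enhancer RNA eRNA_06347. Both then had the middle cerebral artery blocked by a filament for 1 h (MCAO, a model of ischemic stroke) and 6 h of reperfusion, and their infarcted cortex on the blocked side was taken. The third group, sham, had a neck incision with no filament, no oligonucleotide is named for it, and its libraries were taken over from previous work of the laboratory. The level of eRNA_06347 itself was not analysed here. Nothing in the sources used here says that replicates share anything beyond their group, so p-values measure the spread between these libraries. The time of day at which tissue was taken is not given in the sources used here.

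In the clock of mammalian cells, CLOCK and ARNTL bind DNA together at E-boxes and switch on the Per, Cry, Nr1d1, Nr1d2 and Dbp genes. PER and CRY proteins accumulate and block CLOCK and ARNTL, which closes a feedback loop of about a day, and NR1D1 and NR1D2 repress Arntl through ROR elements that the ROR receptors use to activate it. DBP drives genes with D-boxes, which NFIL3 represses. Per1 and Per2 are also immediate targets of CREB at cAMP response elements, which lets light, stress hormones and neuronal activity reset the clock. Transcripts of these genes therefore differ between hours of the day in most tissues, cortex included.

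RefSeq promoter windows (GRCm38.p6, from 250 bases before to 50 bases after a transcript start) were at hand for 9 of the 10 genes, 13 windows in all. They were searched on both strands for the E-box CACGTG, the D-box TTATGTAA, the ROR element TAGGTCA and the cAMP response element TGACGTCA. The sequences that hold a match are shown because each of these factors is itself among the genes measured, with the matching letters in capitals and position -1 as the last base before the transcript start. Per1 has an E-box starting at position -166, in chr11:69098738-69098833 (plus strand), which lies within the annotated span of Per1 but in none of its exons. Cry1 has an E-box at position -60, in chr10:85185066-85185159 (minus strand). Per3 has the D-box in 2 copies, at positions -205 and -158, in chr4:151044771-151044915 (minus strand). Arntl has a ROR element starting 30 bases after the first base of a RefSeq transcript, in chr7:113207530-113207558 (plus strand), inside its first exon.
Per1, E-box: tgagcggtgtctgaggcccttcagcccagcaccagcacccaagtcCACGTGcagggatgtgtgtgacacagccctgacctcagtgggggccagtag
Cry1, E-box: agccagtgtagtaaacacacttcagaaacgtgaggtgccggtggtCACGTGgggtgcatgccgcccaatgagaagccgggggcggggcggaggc
Per3, D-box: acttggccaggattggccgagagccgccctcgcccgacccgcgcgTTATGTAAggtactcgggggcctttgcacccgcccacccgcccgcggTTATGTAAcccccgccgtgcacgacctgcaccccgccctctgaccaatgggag
Arntl, ROR element: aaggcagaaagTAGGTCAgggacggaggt

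Of all 32851 RefSeq promoter windows of this length, 7.15% held the E-box, 0.938% the D-box, 2.61% the ROR element and 1.79% the cAMP response element. The cAMP response element was in none of the 13 windows. Per2 was the gene without a window, so its promoter was not searched. A match says only that these letters are in the window, and the lack of one says only that they are not.

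The sham libraries and the MCAO libraries differed in make-up, which bears on every comparison with sham. Aligned bases were 2.98 to 3.18 gigabases in sham, 5.004 to 5.52 with the control oligo and 4.92 to 5.42 with the knockdown. Nuclear protein-coding genes held 30.6 to 34.2% of TPM in sham against 54.7 to 60.9% and 57.0 to 63.9%, and mitochondrial transcripts 0.277 to 0.577% against 24.8 to 28.9% and 22.6 to 28.1%. The median log2 change of all genes was 0.56 for control oligo against sham and 0.61 for knockdown against sham, and median-ratio scaling of the libraries, which divides each by its median ratio to a common reference, moved both to 0.01. Changes are therefore given as deposited and as scaled. Log2 changes are differences of log2(TPM + 1) with their standard error (SE) from limma, and a change passed where its p, adjusted after Benjamini and Hochberg over all 17080 genes, was under 0.05. Data set, surgery, oligonucleotide and library make-up go together in these comparisons and cannot be told apart. The library type of sham and the hour of tissue collection are unknown, so whether either differed between sham and MCAO could not be checked. For the clock genes, an effect of the hour was not tested and cannot be separated from the other differences from sham.

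In control oligo MCAO cortex 6 of the 10 clock genes were higher than in sham as deposited: Nr1d1, Dbp, Per1, Cry2, Cry1 and Per2. Clock was lower, and Per3, Arntl and Nr1d2 did not pass. Of all genes tested, 52.6% passed as higher and 12.8% as lower, so a share of 6 in 10 higher is near that of genes in general. After scaling, Nr1d1, Dbp, Per1, Cry1 and Cry2 were higher and Clock was lower, against 26.1% of all genes higher and 29.2% lower. Knockdown cortex against the same sham libraries gave the same 6 genes higher and Clock lower as deposited, beside 52.7% and 12.5% of all genes. After scaling 5 were higher, again without Per2, and Clock and Nr1d2 were lower, beside 22.7% and 27.1% of all genes. The ranges of TPM were apart for 8 of 10 clock genes in control oligo against sham and for 9 of 10 in knockdown against sham, and for 70.4% and 72.1% of all genes. The median log2 change of the 10 genes was 1.36 in control oligo against sham (0.73 scaled) and 1.37 in knockdown against sham (0.69 scaled). These comparisons share their sham libraries, so their likeness is no independent evidence.

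**Figure D1:**
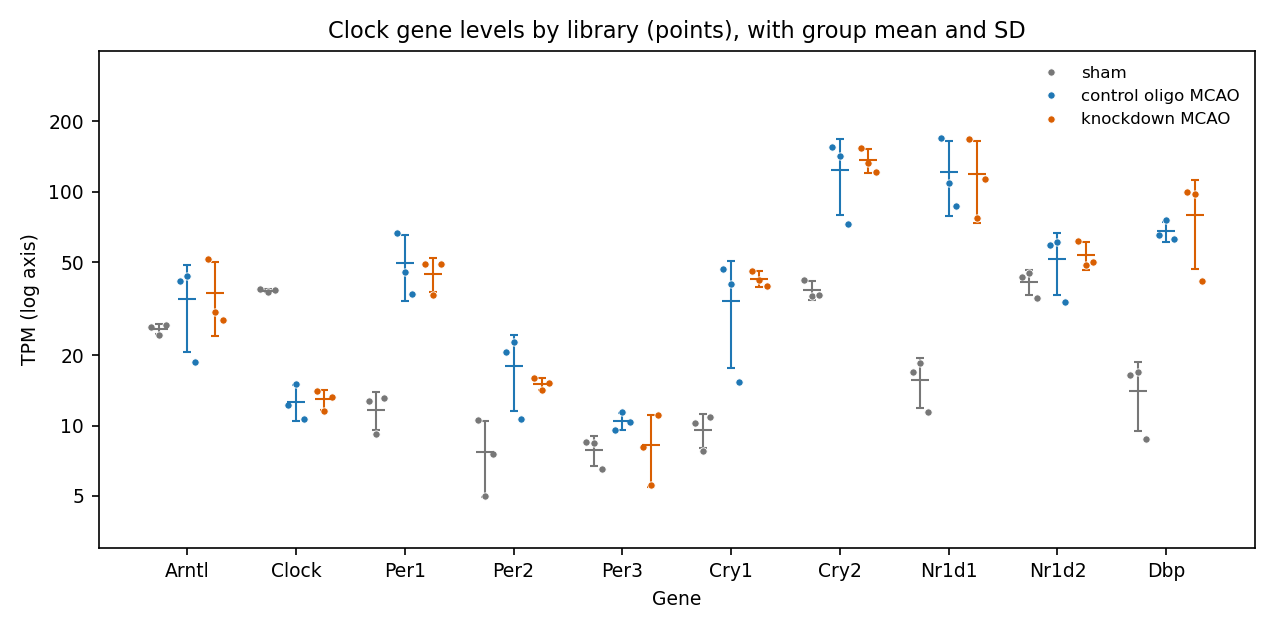
TPM of the 10 clock genes (log axis) in each of the 9 libraries, with points for libraries and bars for the group mean and SD (n = 3). Nr1d1, Dbp and Per1 sit far above sham in all 6 MCAO libraries, Clock sits far below, and the control oligo and knockdown groups overlap for every gene.

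Clock and Arntl, the partners of the activating complex, parted. Clock (ENSMUSG00000029238, chr5:76209868-76304792, minus strand) had 38.2, 37.3 and 37.9 TPM in sham replicates 1 to 3, then 12.2, 15.1 and 10.7 in control oligo replicates 1 to 3 and 14.0, 11.6 and 13.2 in knockdown replicates 2 to 4. Every MCAO library was below every sham library. The coefficient of variation (SD over mean) among sham libraries was 1.19% as deposited, against a median of 12.3% over all genes, and 7.81% against 10.4% after scaling. The log2 change was -1.52 (SE 0.16, adjusted p = 8.97e-05) in control oligo and -1.48 (SE 0.13, adjusted p = 6.79e-05) in knockdown against sham. Scaling made it larger, at -2.16 (adjusted p = 9.79e-06) and -2.17 (adjusted p = 1.98e-05), or 0.209 and 0.207 times the sham mean. A processed pseudogene on the same strand within Clock, Ube2n-ps1, had a sham range of 27.2 to 35.2 TPM against 43.6 to 59.8 TPM after MCAO.

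Arntl (ENSMUSG00000055116, chr7:113207465-113314126, plus strand) had 26.4, 24.4 and 26.9 TPM in sham. Control oligo libraries had 41.4, 43.7 and 18.6, and knockdown libraries 51.7, 30.7 and 28.4. Control oligo replicate 3 lay below all sham libraries while replicates 1 and 2 lay above them, so the groups overlapped. The log2 change did not pass, at 0.31 (SE 0.29, adjusted p = 0.364) in control oligo and 0.45 (SE 0.22, adjusted p = 0.109) in knockdown against sham. Its sign turned with scaling, to -0.33 (adjusted p = 0.301) and -0.25 (adjusted p = 0.335). Without control oligo replicate 3 the deposited change was 0.70 and passed (adjusted p = 0.00184), and the scaled change was -0.02 (adjusted p = 0.90). Without knockdown replicate 4 the deposited change against sham was 0.61 and passed (adjusted p = 0.0284), and without knockdown replicate 2 the scaled change was -0.48 and passed (adjusted p = 0.0277).

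The Period genes, whose proteins with the cryptochromes shut off CLOCK and ARNTL, differed among themselves. Per1 (ENSMUSG00000020893, chr11:69095217-69109960, plus strand) had 12.7, 9.21 and 13.2 TPM in sham, 66.6, 45.5 and 36.6 with the control oligo and 49.0, 36.1 and 48.9 with the knockdown. No MCAO library came near the sham range. It rose by 1.97 (log2, SE 0.24, adjusted p = 0.000177) in control oligo and by 1.85 (SE 0.19, adjusted p = 0.000135) in knockdown against sham. The scaled rises were 1.34 (adjusted p = 0.00269) and 1.16 (adjusted p = 0.00309).

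Per2 (ENSMUSG00000055866, chr1:91415982-91459324, minus strand) had 10.5, 4.99 and 7.57 TPM in sham, 20.6, 22.8 and 10.7 with the control oligo and 16.0, 14.1 and 15.2 with the knockdown. The lowest control oligo library barely cleared the highest sham library. As deposited it was higher by 1.11 (SE 0.32, adjusted p = 0.0146) and 0.94 (SE 0.24, adjusted p = 0.00922), and after scaling neither value passed, at 0.51 (adjusted p = 0.188) and 0.28 (adjusted p = 0.368). Without sham replicate 2, its lowest library, the deposited change in control oligo was 0.87 (adjusted p = 0.0585). With protein-coding transcripts only, the change in control oligo was nearly the same at 1.12, but with a larger SE of 0.38 it missed the threshold (adjusted p = 0.0659).

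Per3 (ENSMUSG00000028957, chr4:151003652-151044665, minus strand) had the lowest mean TPM of the 10 genes in control oligo and knockdown libraries, and the second lowest in sham. Sham libraries had 8.54, 8.46 and 6.54 TPM, control oligo libraries 9.59, 11.4 and 10.4, and knockdown libraries 8.08, 5.55 and 11.1. Control oligo libraries lay just above sham, and knockdown libraries spread to both sides of it. Its changes did not pass, at 0.38 (SE 0.17, adjusted p = 0.0778) and 0.03 (SE 0.24, adjusted p = 0.924). The scaled changes had the other sign, at -0.22 (adjusted p = 0.173) and -0.62 (adjusted p = 0.066), and the latter was -0.86 and passed without knockdown replicate 4 (adjusted p = 0.00423). Per3 lies wholly within Camta1 on the same strand (41014 shared bases), which had 55.9 to 103 TPM, so intronic reads of Camta1 cannot be told from Per3 there.

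Both cryptochromes, the strongest repressors of the loop, were higher after MCAO in TPM summed over the gene. When only the 5′ side of transcripts was used (below), neither rise passed in control oligo, while both passed in knockdown. Cry1 (ENSMUSG00000020038, chr10:85131700-85185064, minus strand) had 10.2, 7.76 and 10.8 TPM in sham, 46.5, 40.3 and 15.4 with the control oligo and 45.9, 42.1 and 39.3 with the knockdown. Control oligo replicate 3 was the exception, closer to sham than to the other MCAO libraries. The rise in knockdown was 2.04 (SE 0.16, adjusted p = 4.25e-05; 1.37 scaled, adjusted p = 0.000595). In control oligo it was 1.60 (SE 0.37, adjusted p = 0.00493; 0.97 scaled, adjusted p = 0.0465). The scaled control oligo call was lost when any 1 of 5 libraries was left out, with adjusted p from 0.0611 to 0.14. Without control oligo replicate 3 it was 1.38 (adjusted p = 0.00238).

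Cry2 (ENSMUSG00000068742, chr2:92403646-92434043, minus strand) had 41.9, 35.9 and 36.0 TPM in sham, 156, 142 and 73.0 with the control oligo and 153, 133 and 121 with the knockdown. Control oligo replicate 3 was again the lowest MCAO library, yet above all sham libraries. Cry2 rose by 1.61 (SE 0.26, adjusted p = 0.000871) and 1.81 (SE 0.14, adjusted p = 4.38e-05), or by 0.95 (adjusted p = 0.00958) and 1.10 (adjusted p = 0.000246) scaled. It had the highest mean TPM of the 10 genes in control oligo and knockdown libraries, with Nr1d1 second. In control oligo the means of this pair, 124 ± 44.3 and 122 ± 42.8 TPM (SD, n = 3), differed by less than either SD, and in knockdown, at 136 ± 16.2 and 119 ± 45.8 TPM, by less than the SD of Nr1d1 only.

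The nuclear receptors of the second loop, which repress Arntl, also parted. Nr1d1 (ENSMUSG00000020889, chr11:98767932-98775333, minus strand) had the largest deposited log2 change of the 10 genes in both comparisons with sham, while after scaling Clock had the largest in knockdown. It had 17.0, 18.5 and 11.4 TPM in sham, 169, 109 and 86.7 with the control oligo and 168, 76.9 and 113 with the knockdown. The lowest MCAO library was far above the highest sham library. Libraries of the same MCAO group also differed widely, at 122 ± 42.8 TPM in control oligo and 119 ± 45.8 TPM in knockdown (SD, n = 3). The rise was 2.85 (SE 0.26, adjusted p = 5.1e-05) in control oligo and 2.81 (SE 0.29, adjusted p = 0.000152) in knockdown against sham, and 2.21 (adjusted p = 0.000257) and 2.12 (adjusted p = 0.000735) scaled. The mean TPM was 7.78 and 7.63 times that of sham, or 4.93 and 4.64 times scaled. The last 1075 bases of the Nr1d1 span overlap Thra, a thyroid hormone receptor gene on the opposite strand, which ranged from 183 to 211 TPM in sham and from 322 to 442 TPM after MCAO. The counting used no strand option, so reads in that stretch are uncertain. The first exon of Nr1d1, outside the overlap, was covered 2.57 times as much in control oligo as in sham libraries per aligned gigabase, and its exon 5 was covered 6.37 times as much.

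Nr1d2 (ENSMUSG00000021775, chr14:18204054-18239127, minus strand) had 43.3, 44.98 and 35.2 TPM in sham, 58.9, 61.2 and 33.8 with the control oligo and 61.7, 48.7 and 50.2 with the knockdown. Control oligo replicate 3 lay below sham and the other MCAO libraries above it. As deposited it did not pass, at 0.27 (SE 0.23, adjusted p = 0.323) and 0.37 (SE 0.15, adjusted p = 0.0631). Scaled values had the other sign, at -0.38 (adjusted p = 0.098) and -0.34, of which the latter passed (adjusted p = 0.0375). That call was lost without any 1 of the sham libraries (adjusted p from 0.0645 to 0.127) or without knockdown replicate 3 (adjusted p = 0.0942). Without control oligo replicate 3 the deposited change in control oligo was 0.54 and passed (adjusted p = 0.0116), and without knockdown replicate 4 that in knockdown was 0.41 and passed (adjusted p = 0.0418).

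Dbp (ENSMUSG00000059824, chr7:45705088-45710203, plus strand), the output factor, had 16.5, 16.9 and 8.79 TPM in sham, 64.9, 75.4 and 62.8 with the control oligo and 99.5, 97.7 and 41.5 with the knockdown. All MCAO libraries were above all sham libraries, with knockdown replicate 4 the lowest of them. It rose by 2.24 (SE 0.24, adjusted p = 9.91e-05) and 2.37 (SE 0.37, adjusted p = 0.001), or by 1.60 (adjusted p = 0.000422) and 1.68 (adjusted p = 0.00639) scaled. Its last 737 bases overlap Sphk2, a sphingosine kinase gene on the opposite strand, which ranged from 5.7 to 8.7 TPM in sham and from 16.0 to 25.3 TPM after MCAO. In tissue RNA, fewer cells of a type and less RNA per cell cannot be told apart for any of these genes.

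Knockdown of eRNA_06347 against the control oligo was the one comparison within MCAO cortex, with libraries of 1 kind. None of the 10 clock genes passed (limma, adjusted p = 1 for each), none had an unadjusted p under 0.05, and for none did the groups fail to overlap. Over all genes, 0.0117% passed, 1.88% had an unadjusted p under 0.05 and 5.4% did not overlap. Few genes of any kind were thus called, which does not show that few differed. The largest differences were those of Cry1, at 0.45 with a 95% interval from -0.50 to 1.39, and Per3, at -0.35 with an interval from -0.99 to 0.29. Clock had the narrowest interval, from -0.44 to 0.51 around 0.04. In folds of TPM + 1, the interval ran from 0.739 to 1.43 for Clock, from 0.545 to 1.73 for Nr1d1 and from 0.707 to 2.63 for Cry1. With 3 libraries a group, differences anywhere within these bounds remain compatible with the values. The intervals do not show that the groups are alike. The sign of the Cry1 difference rested on control oligo replicate 3, since without it the value was -0.03.

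**Figure D2:**
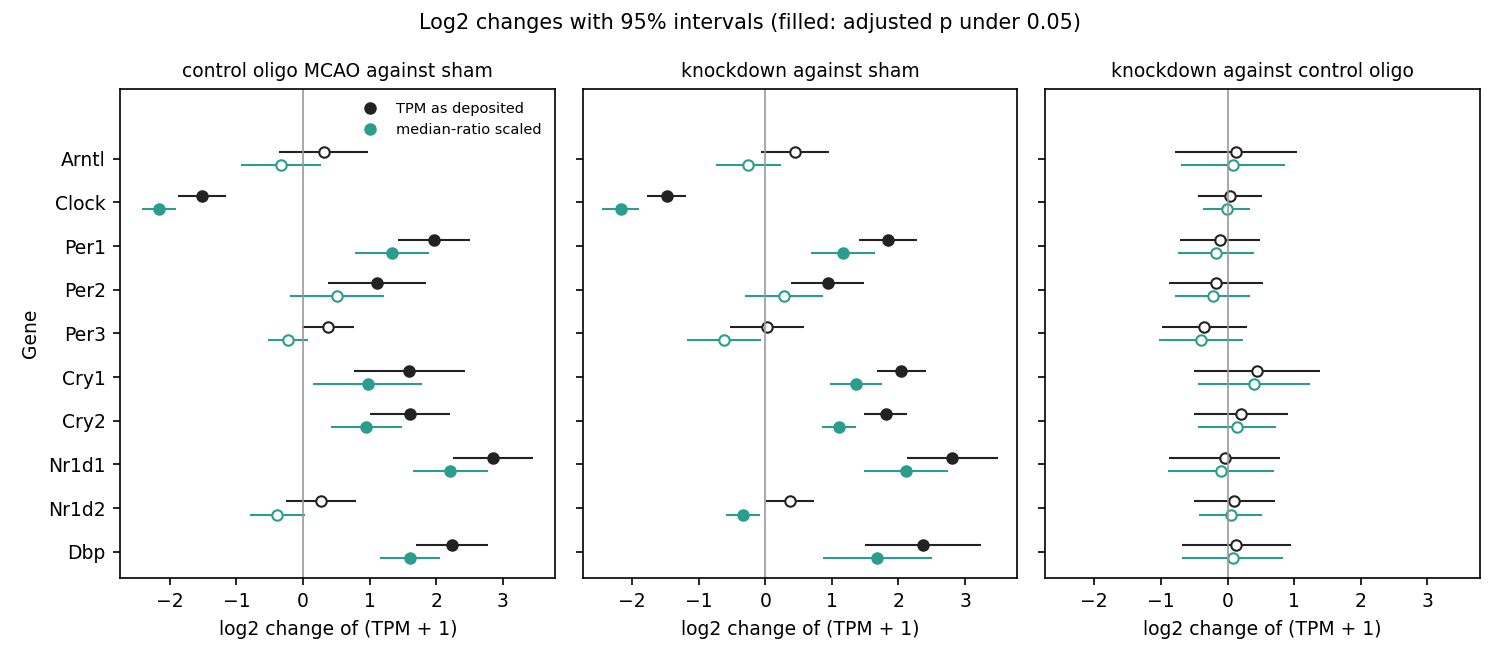
Log2 changes of the 10 clock genes with 95% intervals from limma in each of the 3 comparisons, from TPM as deposited and after median-ratio scaling, with filled points where the adjusted p was under 0.05. Scaling shifts all values against sham to the left, moves Arntl, Per3 and Nr1d2 across 0, and leaves the values of knockdown against control oligo near 0 with wide intervals.

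Ratios within a library do not depend on how libraries are scaled, and they are given as descriptions with no test. The log2 ratio of Arntl to Clock was -0.53, -0.61 and -0.50 in sham, 1.76, 1.54 and 0.80 with the control oligo and 1.88, 1.40 and 1.11 with the knockdown. Clock thus had the higher TPM of the activating pair in all sham libraries and Arntl in all MCAO libraries. The log2 ratio of Nr1d1 to Arntl, a repressor over its target, was -0.76 ± 0.43 (SD, n = 3 here and below) in sham, 1.85 ± 0.48 after the control oligo and 1.67 ± 0.33 after the knockdown. Per1 to Arntl went from -1.16 ± 0.21 in sham to 0.57 ± 0.47 and 0.31 ± 0.44, and Dbp to Arntl from -0.94 ± 0.58 to 1.06 ± 0.60 and 1.05 ± 0.57. No MCAO library lay in the sham range for these ratios. For Per2 to Arntl, at -1.81 ± 0.48 in sham, -0.92 ± 0.10 with the control oligo and -1.24 ± 0.41 with the knockdown, the knockdown libraries overlapped sham and the control oligo libraries did not. Cry1 to Cry2 overlapped sham in both groups, at -1.99 ± 0.24, -1.94 ± 0.27 and -1.68 ± 0.06.

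**Figure D3:**
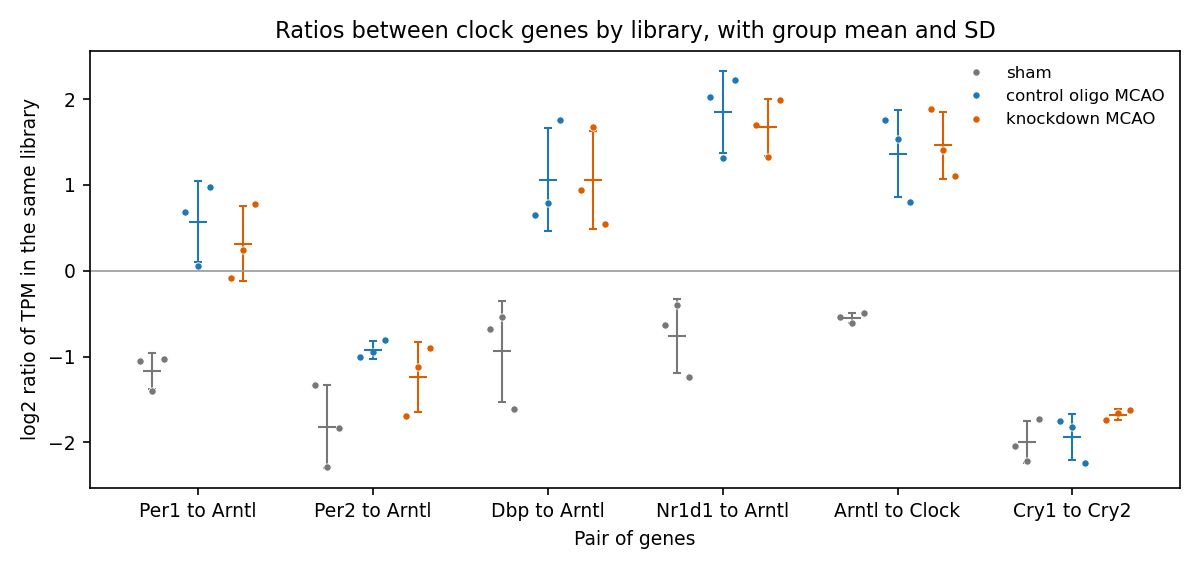
Log2 ratio of the TPM of 2 clock genes in the same library, for 6 pairs, with points for the 9 libraries and bars for the group mean and SD (n = 3). The ratio of Arntl to Clock lies below 0 in sham and above 0 in all MCAO libraries, while that of Cry1 to Cry2 overlaps across groups.

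Coverage along the transcripts differed between sham and MCAO libraries, and it moved with several of the changes. The ratio of coverage on the 3′ side of the transcript midpoint to that on the 5′ side had a median over all genes of 1.00 in sham and of 1.15 to 1.26 in MCAO libraries. For the clock genes the shift was mostly larger. Per3 had a ratio of 0.93, 1.17 and 1.18 in sham, 3.08, 2.98 and 3.91 with the control oligo and 3.07, 2.59 and 2.61 with the knockdown. Per2 went from 1.19 ± 0.11 in sham to 3.01 ± 0.57 and 2.52 ± 0.20, Per1 from 0.49 ± 0.08 to 1.67 ± 0.38 and 1.52 ± 0.05, and Cry2 from 1.10 ± 0.04 to 2.32 ± 0.26 and 2.22 ± 0.16. Dbp had 1.92 ± 0.15, 1.73 ± 0.49 and 1.85 ± 0.09, without a shift beyond its SD, and Clock 1.11 ± 0.08, 1.49 ± 0.20 and 1.27 ± 0.03. The sides are those of each transcript, summed over the transcripts of a gene. For Dbp, the retained-intron transcripts ENSMUST00000210120 and ENSMUST00000211748, which start inside the gene, held 40.9 and 16.0% of mean control oligo TPM. The Dbp ratio therefore does not compare the 5′ and 3′ sides of the gene. The most frequent aligned length in sparsely covered transcripts was 51 bases in sham and 282 in MCAO libraries, and how much of the shift that accounts for was not tested.

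Exon by exon, coverage relative to sham was lower in the first exon than in the last in 5 of the 6 genes that could be followed, and Nr1d2 was the exception. In these 6 genes a single transcript held at least 80% of TPM in each group. For Per3 coverage per aligned gigabase in control oligo was 0.167 times that of sham in the first exon and 1.46 times in exon 21, the last. For Per2 the ratio was 0.394 in the first exon and 2.31 in exon 23, the last. For Cry2 it was 0.745 in the first and 2.97 in exon 12. For Nr1d2 it was 0.954 in the first exon, then climbed from 0.186 in exon 2 to 0.553 in exon 7 and 0.908 in exon 8, the last. Sham coverage of the first exon was low in Nr1d2, Per2 and Cry1, at 1.85, 1.48 and 1.53 per aligned gigabase, so ratios there are uncertain. Nr1d1 was above sham in each of its 8 exons, from 2.57 times in the first to 8.88 times in the last.

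**Figure D4:**
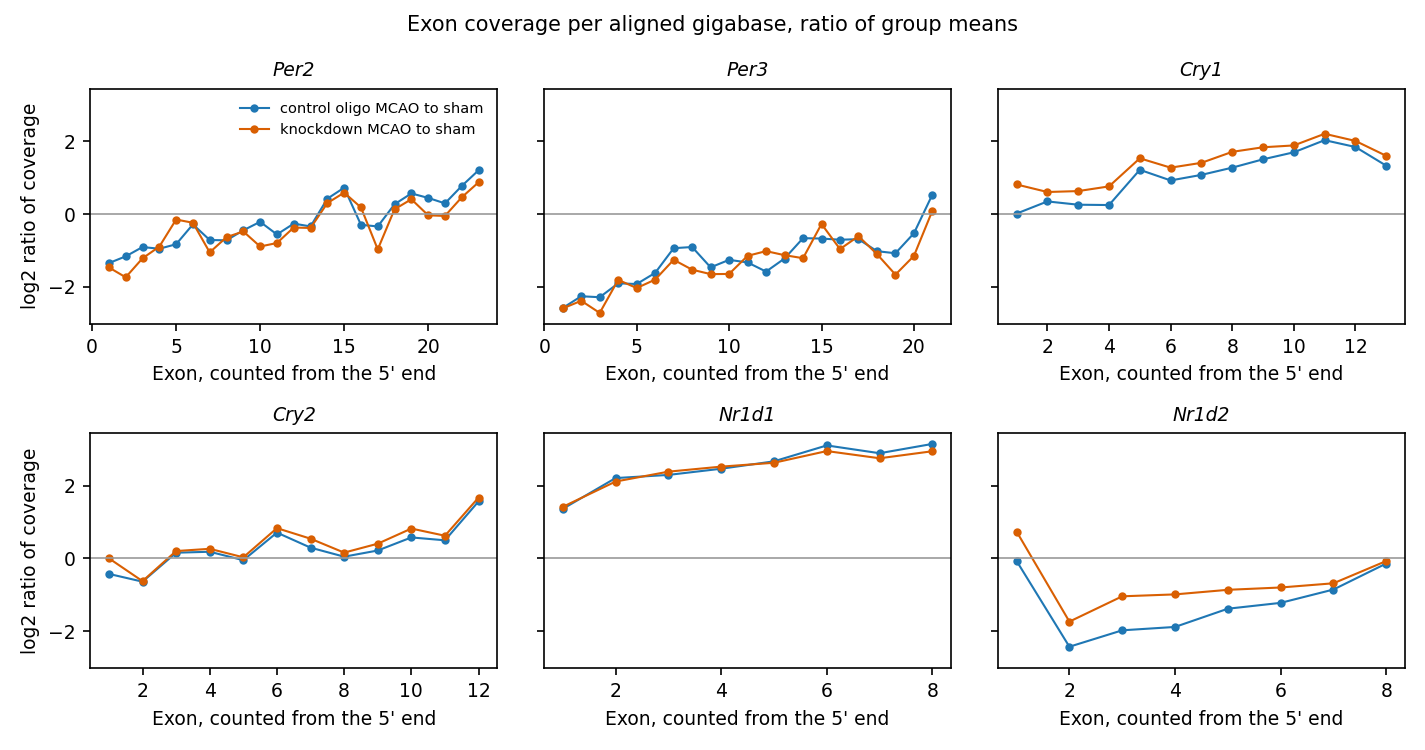
Log2 ratio of mean exon coverage per aligned gigabase in control oligo and in knockdown libraries to that in sham, along the main transcript of the 6 clock genes with a single leading transcript, exons counted from the 5′ end. Ratios tend to climb toward the 3′ end in Per2, Per3, Cry1, Cry2 and Nr1d1 and from exon 2 on in Nr1d2, and of these 6 genes Nr1d1 and Cry1 lie above 0 in all exons in both groups.

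When only the 5′ side was used, scaled in the same way, Nr1d1 (1.98, adjusted p = 0.00037), Dbp (1.87, adjusted p = 0.000368) and Per1 (0.72, adjusted p = 0.0341) were higher in control oligo than in sham. Clock (-2.18, adjusted p = 1.49e-05), Per3 (-0.95, adjusted p = 0.0012) and Nr1d2 (-0.59, adjusted p = 0.029) were lower. Of all 17080 genes, 4590 were higher and 5050 lower there, so the clock genes were called about as often as genes in general. Cry1 (0.64, adjusted p = 0.145) and Cry2 (0.49, adjusted p = 0.118) did not pass on the 5′ side, and Per2 had a value of -0.11 (adjusted p = 0.756). In knockdown against sham the 5′ side kept all 5 scaled rises, with Cry1 at 1.07 (adjusted p = 0.00162) and Cry2 at 0.64 (adjusted p = 0.00212). In that comparison 4191 of all 17080 genes were higher on the 5′ side and 4819 lower. Per1 differed most between the sides, at 0.72 on the 5′ side and 2.08 on the 3′ side in control oligo against sham. Clock was lower by nearly the same amount on both sides, at -2.18 and -2.12. Sides here are again those of each transcript. For Dbp, with transcripts that start inside the gene, they are not the sides of the gene.

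The transcripts that StringTie assigned to Clock changed their order. In sham ENSMUST00000202122 led with 20.9, 17.2 and 18.0 TPM and ENSMUST00000202651, the longest at 9744 bases, had 6.1, 6.97 and 7.01. In MCAO libraries ENSMUST00000202651 held 66.7 to 75.1% of the gene, at 9.05, 11.3 and 7.13 TPM in control oligo, and ENSMUST00000202122 had 1.29, 1.20 and 3.42. ENSMUST00000075159 went from 8.24, 10.6 and 11.8 TPM in sham to 1.51, 1.48 and 0 in control oligo. The lower Clock TPM thus sat in these shorter coding transcripts, and the values carry no test because transcripts that share exons also share reads.

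Dbp held a large share of transcripts annotated as retained intron, 35.7 to 49.8% in sham, 34.7 to 78.1% with the control oligo and 30.9 to 53.4% with the knockdown. ENSMUST00000210120, one of these, had 1.59, 37.3 and 44.2 TPM within the control oligo group, against 42.4, 29.4 and 10.2 for the coding ENSMUST00000080885, so the split between them varied between replicates. With coding transcripts only Dbp was still higher, by 1.69 in control oligo (adjusted p = 0.0299) and 2.25 in knockdown against sham (adjusted p = 0.00257). For Arntl the coding ENSMUST00000047321 held 13.5 to 63.2% of TPM among control oligo libraries and ENSMUST00000211770 28.7 to 42.1%. ENSMUST00000210074 was listed at 0 in sham and had 20.6 TPM in control oligo replicate 2 against 0.227 and 0 in the others. Per1 was led in all groups by ENSMUST00000102605, at 66.1% of the mean in sham, 57.4% with the control oligo and 56.1% with the knockdown, followed by ENSMUST00000021271 and ENSMUST00000101004. The main transcripts of the other genes, Per2, Per3, Cry1, Cry2, Nr1d1 and Nr1d2, held 82.6 to 100% of the group mean. The retained-intron ENSMUST00000143308 of Nr1d2 held 2.96% in sham, 11.9% with the control oligo and 4.27% with the knockdown. In control oligo replicates 1 to 3 its share was 12.7, 16.2 and 2.76%. The retained-intron ENSMUST00000138584 of Per3 held 6.37% in sham, 10.7% with the control oligo and 10.1% with the knockdown.

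A list of 30 other genes of the clock machinery, its kinases, ubiquitin ligases, cofactors and further output factors, was read beside the 10. Of these, 29 passed the filter on low values. In control oligo against sham 14 were higher and 5 lower as deposited, with a median log2 change of 0.58 against 0.56 over all genes. After scaling 5 were higher and 10 lower, with a median of -0.07. In knockdown against sham 17 were higher and 4 lower, and after scaling 7 and 8. Of all genes tested, 52.6% were higher and 12.8% lower in control oligo as deposited, and 26.1% and 29.2% after scaling. In knockdown these shares were 52.7% and 12.5%, and 22.7% and 27.1% after scaling. The list as a whole was thus called about as often as genes in general. None passed in knockdown against control oligo, and none had an unadjusted p under 0.05 there.

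The named genes that were higher, by the deposited and the scaled values alike, are Ciart, Bhlhe41 and Nfil3. Ciart, a repressor of CLOCK and ARNTL, had 6.2, 6.23 and 4.1 TPM in sham, 58.4, 44.0 and 25.5 with the control oligo and 45.4, 41.5 and 29.3 with the knockdown. Its rise was 2.69 in control oligo (2.09 scaled, adjusted p = 0.000438) and 2.61 in knockdown against sham (1.96 scaled, adjusted p = 0.000175). Bhlhe41, which competes for E-boxes, rose by 2.44 and 2.87 (1.88 scaled, adjusted p = 0.0008, and 2.26, adjusted p = 0.000164). Nfil3, the repressor at D-boxes, rose by 1.99 and 2.11 (1.38 scaled, adjusted p = 0.00586, and 1.44, adjusted p = 0.00157). All MCAO libraries lay above all sham libraries for these genes.

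The named genes that were lower are Rorb, Rora, Gsk3b and Ncor1, of which the ROR receptors Rora and Rorb activate Arntl. Rorb had 26.7, 26.3 and 25.4 TPM in sham, 8.97, 10.4 and 6.25 with the control oligo and 10.3, 8.18 and 8.35 with the knockdown. It fell by 1.53 in control oligo and by 1.46 in knockdown against sham (scaled -2.17, adjusted p = 2.34e-05, and -2.14, adjusted p = 1.97e-05). Rora fell by 0.70 and 0.54 (scaled -1.34, adjusted p = 0.0016, and -1.24, adjusted p = 0.000813). Gsk3b, a kinase that phosphorylates clock proteins, fell by 0.56 and 0.45 (scaled -1.21, adjusted p = 0.000238, and -1.15, adjusted p = 0.000166). Ncor1, the corepressor that NR1D1 recruits, fell by 0.49 and 0.51 (scaled -1.15, adjusted p = 0.000235, and -1.22, adjusted p = 8.32e-05).

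Markers of some cell types moved with the groups too, and their part in the clock gene changes was not tested. Summed scaled TPM of 8 neuronal markers was 4175 to 4401 in sham, 3561 to 4076 with the control oligo and 2944 to 4047 with the knockdown. The 8 microglial markers summed to 235 to 250 scaled TPM in sham, 295 to 376 with the control oligo and 305 to 761 with the knockdown, and the 6 neutrophil markers in the tables to 2.95 to 7.43, 24.0 to 322 and 59.3 to 1197. Astrocyte markers summed to 1476 to 1529, 1566 to 2005 and 1334 to 2664, oligodendrocyte markers to 777 to 1241, 818 to 1407 and 902 to 1109, and endothelial markers to 136 to 145, 147 to 241 and 154 to 377. No marker of any list was at 0 in all libraries. As scaled, 1 of 8 neuronal markers passed as higher and 3 as lower in control oligo against sham. The counts were 5 and 1 of 8 microglial, 2 and 2 of 8 astrocyte, 3 and 1 of 8 oligodendrocyte and 3 and 3 of 8 endothelial markers. They were 5 and 0 for the 5 neutrophil markers that passed the filter. Of all genes tested, 26.1% were higher and 29.2% lower, and the counts other than microglial and neutrophil are near these shares. In knockdown against sham the counts were 3 and 1 for astrocyte, microglial, oligodendrocyte and endothelial markers, 1 and 3 for neuronal and 3 and 0 for neutrophil. All genes there had 22.7% higher and 27.1% lower.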

How the data were processed

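RNA-seq of 9 libraries of mouse cortex was used. The submitters' processing notes name HISAT2 2.0, StringTie 1.3 and the build GRCm38/mm10. Per the file headers, StringTie 1.3.4d estimated only the transcripts of a merged annotation (-e, with -B for tables) and no strand option was set. Each deposited table gives per transcript and exon a coverage, and per transcript FPKM and TPM, other measures than read counts. Per the labels' protocols the 6 MCAO libraries were stranded poly(A) mRNA libraries sequenced in pairs; for sham this is not given in the sources used here.

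TPM was summed per gene ID. Genes with TPM of at least 1 in at least 3 of 9 libraries (17080) were fitted with limma 3.58.1 (R 4.3.3, limma-trend) on log2(TPM + 1), each comparison on its 6 libraries, with Benjamini-Hochberg adjustment over all genes. The script was tested on simulated data. Transcript types came from GENCODE M21, which typed 130634 of 131100 transcripts. Depth is given as aligned bases, from coverage and FPKM. Counts of reads were not used, so the counting error of single values is unknown. The coverage on each side of a transcript's midpoint was computed from its exon coverages. Python 3.11.15, pandas 2.3.3, numpy 2.4.6 and matplotlib 3.10.9 were used. The members, lists and tests were chosen with earlier results of these data known. All 10 members were named, with genes that overlap them at a TPM of at least 1, transcripts with at least 10% of a gene in any group mean, and, of 30 other clock genes, the 6 largest scaled changes among those called both ways in each comparison with sham. Alternatives were other scalings, FPKM, a pseudocount of 0.1, no filter, all libraries in 1 fit, the replicate block and leaving out libraries; coding transcripts only, the transcript sides, and the block with scaling were added after seeing the data.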

Additional observations from a re-analysis of the deposited data

How the results depend on the processing

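Of the 10 clock genes, 6 higher and 1 lower in each comparison with sham were the deposited calls. Leaving out each library in turn gave 5 to 8 higher and 1 lower in control oligo against sham, 6 to 8 higher and 1 lower in knockdown against sham, and 0 in either direction in knockdown against control oligo, where every other setting gave 0 too. Using the 5′ side of transcripts with scaling gave 3 higher and 3 lower in control oligo against sham, beside 4590 and 5050 of all 17080 genes. It gave 3 lower in knockdown against sham, beside 4819 of all genes. The number lower in knockdown against sham was 2 with scaling, 2 with scaling and the replicate block, and 3 with TPM over nuclear protein-coding genes. Same-numbered libraries correlated at -0.07 to 0.23 and differently numbered ones at -0.24 to 0.29. These values gave no sign of pairing by replicate number, but so few libraries cannot exclude it. With the replicate block 6 genes were higher and 1 lower in control oligo and 7 higher and 1 lower in knockdown against sham. In comparisons with knockdown, replicates 1 and 4 had no same-numbered partner.

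Signs turned for values that did not pass as deposited, with the exceptions of Per2 on the 5′ side (-0.11 in control oligo and -0.20 in knockdown against sham). Against sham, Per3, Arntl and Nr1d2 were at -0.22, -0.33 and -0.38 in control oligo and -0.62, -0.25 and -0.34 in knockdown with scaling; at -0.37, -0.48, -0.53 and -0.82, -0.43, -0.51 over nuclear protein-coding genes; at -0.15, -0.26, -0.31 and -0.49, -0.16, -0.24 with FPKM; at -0.95, -0.39, -0.59 and -1.17, -0.34, -0.49 on the 5′ side; and at -0.22, -0.33, -0.38 and -0.83, -0.14, -0.32 with scaling and the replicate block. On the 3′ side Arntl and Nr1d2 were at -0.26 and -0.26 in control oligo, and Per3, Arntl and Nr1d2 at -0.27, -0.15 and -0.23 in knockdown. Per3 in knockdown was -0.13 with the replicate block alone, and between -0.19 and 0.25 on leaving out a library. In knockdown against control oligo, Clock was -0.013 with scaling, -0.047 over nuclear protein-coding genes, -0.068 on the 3′ side and -0.073 with scaling and the replicate block. Per1 was 0.043 and Nr1d1 0.23 with the replicate block, Nr1d1 0.14 with scaling and the block, and Dbp -0.040 on the 5′ side. Leaving out a library there gave Per1 -0.31 to 0.11, Per2 -0.50 to 0.019, Cry1 -0.031 to 0.74, Cry2 -0.14 to 0.41, Arntl -0.25 to 0.34, Clock -0.069 to 0.16, Nr1d1 -0.32 to 0.24, Nr1d2 -0.17 to 0.25 and Dbp -0.081 to 0.54. The cause was not tested. With 3 libraries a group, and aligned bases per gene from 34.3 kilobases for Dbp in sham to 1559 for Cry2 in control oligo, small changes would not be detected.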

Other observations

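Noct, on the list of other clock genes, had 12.3 TPM in sham replicate 1 against 1.72 and 1.51 in sham replicates 2 and 3. Control oligo libraries had 6.81, 9.90 and 10.1 TPM and knockdown libraries 6.50, 4.66 and 8.80. Its change in control oligo against sham was 1.13 (limma, adjusted p = 0.111). It was named after its values were seen. Sham replicate 1 was also the highest sham library for Per2, at 10.5 TPM against 4.99 and 7.57.

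Npas2, the paralog that can take the place of CLOCK as partner of ARNTL, had 13.5, 12.5 and 13.0 TPM in sham, 21.8, 23.7 and 15.6 in control oligo and 20.9, 19.8 and 20.8 in knockdown libraries. It was higher by 0.59 in control oligo (adjusted p = 0.0185) and 0.62 in knockdown against sham (adjusted p = 0.00303) as deposited, and at -0.04 and -0.06 after scaling (adjusted p = 0.816 and 0.663). Its values were seen before it was named.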
